A study of Mus musculus with 8 samples.

Results

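The TEAD transcription factors and their VGLL cofactors were followed in immortalized mouse embryonic fibroblasts (MEFs) with and without SLMAP3. The genes were taken by name from the deposited table of gene counts. They are 6 of the 55401 genes listed, namely the 4 TEAD genes Tead1, Tead2, Tead3 and Tead4 and the 2 cofactor genes Vgll3 and Vgll4. All 6 passed the filter on low counts that left 15461 genes to test.

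RNA was sequenced from 8 MEF lines of the B6C3F1 strain, each isolated from a different embryo at E14.5 and each giving 1 library. The 4 SLMAP3-/- lines came from mice in which exon 3 of Slmap, flanked by lox sites, had been removed by a Cre transgene under the CMV promoter, and 4 lines were WT at Slmap. All 8 lines, WT included, had been immortalized with the SV40 large T antigen, an oncoprotein that binds p53 and RB proteins, so neither genotype stands for untransformed fibroblasts. The labels name no batch, the names of SLMAP3-/- replicate 3 and WT replicate 4 carry a common line number of unstated meaning, and whether a line is clonal is not given in the sources used here.

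TEAD proteins bind DNA but activate transcription poorly alone. They recruit YAP and TAZ, the coactivators that the Hippo kinase cascade keeps out of the nucleus by phosphorylation, and so set which genes respond to cell density and matrix stiffness, with connective tissue genes among the classical targets in fibroblasts. VGLL proteins carry a short TEAD-binding motif and bind TEADs in place of YAP or TAZ, VGLL4 mostly as a repressor, while VGLL3 has been linked to mesenchymal and muscle cells. SLMAP3 belongs to the STRIPAK phosphatase complex, which is reported to restrain the Hippo kinases. The study that made these lines found no significant change in YAP phosphorylation or nuclear YAP in SLMAP3-/- MEFs. The comparison of genotypes asks here whether the transcripts of the factors at the end of that cascade differ without SLMAP3.

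The 4 TEAD genes encode closely related proteins, and the longest run of bases shared between any of their GENCODE M21 transcripts (GRCm38) was the 59 bases common to Tead3 and Tead4. It is shown because Salmon has to divide fragments that lie wholly inside it between both genes. The stretch is coding sequence that joins the last exon to the one before it, on the minus strand at chr17:28332826-28333001 in Tead3 and on the minus strand at chr6:128228472-128228618 in Tead4. The most similar windows of Tead1 (chr7:112894414-112898554, plus strand) and Tead2 (chr7:45232285-45232822, plus strand) also join the last exon to the one before it, and capitals mark the bases that differ from Tead3:
Tead1: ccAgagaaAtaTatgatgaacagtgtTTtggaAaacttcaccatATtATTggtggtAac
Tead2: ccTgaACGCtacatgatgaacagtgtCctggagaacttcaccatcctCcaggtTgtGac
Tead3: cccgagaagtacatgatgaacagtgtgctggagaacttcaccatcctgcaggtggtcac
Tead4: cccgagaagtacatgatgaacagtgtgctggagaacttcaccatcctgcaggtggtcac
Tead1 differed from Tead3 at 12 of the 59 bases and Tead2 at 9. The next longest runs were 35 bases between Tead2 and Tead3 and 23 bases between Tead2 and Tead4. Tead1 shared at most 19 bases with another TEAD gene, and Vgll3 and Vgll4 shared 13.

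Total estimated counts ran from 49879059 to 63322486 per line. Slmap, the targeted gene, stood at 32.7 to 44.3 CPM, the count scaled to library size, in SLMAP3-/- lines and at 124 to 143 CPM in WT lines, so each line was on the side its label gives (log2 fold change -1.84, adjusted p = 0.00119, edgeR quasi-likelihood test). No gene other than Slmap passed an adjusted p under 0.05, and without adjustment 280 of the 15461 had p under 0.05. All 10 fibroblast markers passed the filter, with a summed level of 15720 to 21390 CPM in SLMAP3-/- and 18610 to 23450 CPM in WT lines. Summed markers of other cells reached at most 4.68 CPM for epithelium, 5.48 CPM for blood cells and 0.442 CPM for skeletal muscle (Myod1 at 0 in every line). Endothelial markers summed to 16.6 to 40.5 CPM in SLMAP3-/- and 9.47 to 27.5 CPM in WT lines. Neural markers (Nes, Tubb3, Map2, Sox2 and Sox10) summed to 164 to 282 CPM in SLMAP3-/- and 214 to 509 CPM in WT lines. Of these 5 genes 4 passed the filter, and only the neural crest factor Sox10 had at most 3 counts in every line.

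Transcripts of all 6 genes were present in every line, and none differed between SLMAP3-/- and WT MEFs beyond the spread between lines. edgeR called 0 of the 6 genes, against 0.00647% of all genes tested, and 0 had an unadjusted p under 0.05. DESeq2 and limma-voom also called 0 of the 6. The lines of the genotypes overlapped for each of the 6 genes. They failed to overlap for only 1.25% of all genes tested, so overlap does not set the 6 genes apart. Means were higher in SLMAP3-/- lines for 5 genes and lower for Tead4, with a median log2 fold change of 0.053 against -0.0014 over all genes tested. The 95% intervals, each for a single gene and not adjusted over the 6, ran from 0.641-fold at the lowest to 1.55-fold at the highest. In bulk RNA, fewer expressing cells and less RNA per cell cannot be told apart. The numbers that follow are TMM-normalized CPM in replicates 1, 2, 3 and 4 of each genotype, and each adjusted p in edgeR was 1.0.

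Tead1 (chr7:112679318-112906807, plus strand), the TEAD gene with the highest CPM before correction for length, stood at 517, 410, 306 and 404 CPM in SLMAP3-/- lines. In WT lines it stood at 358, 484, 385 and 363 CPM. The highest and the lowest line were both SLMAP3-/- (replicates 1 and 3), and only SLMAP3-/- replicates 2 and 4 lay inside the WT range. Means were 409 ± 86.1 CPM in SLMAP3-/- and 397 ± 59.1 CPM in WT MEFs (SD, n = 4 each), a log2 fold change of 0.04 with an SE of 0.17 and a 95% interval from -0.35 to 0.43. By exact permutation of the log2 CPM (two-sided) p was 0.914, where 4 against 4 lines can reach 0.0286 at best. Tead1 ranked number 340 of the genes tested by mean CPM. The annotation places 2310014F06Rik on the opposite strand and Gm44462 within its span, and whether the counting used strand is not stated.

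Tead2 (chr7:45215753-45233644, plus strand) is the TEAD best known from the early embryo and neural progenitors. It stood at 146, 131, 169 and 100.3 CPM in SLMAP3-/- lines and at 168, 100.5, 116 and 107 CPM in WT lines. Each genotype held one line close to 168 CPM and one close to 100 CPM. Means were 137 ± 28.6 CPM in SLMAP3-/- and 123 ± 30.9 CPM in WT MEFs (SD, n = 4 each). The log2 fold change of 0.15 (SE 0.204, 95% interval -0.32 to 0.62) was the furthest from 0 among the 6 genes and stayed below the spread between lines (exact permutation p = 0.543). Tead2 overlaps Cd37, a leukocyte gene on the opposite strand.

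Tead3 (chr17:28331671-28350817, minus strand) is widely expressed and abundant in placenta. It stood at 107, 92.1, 93.5 and 103 CPM in SLMAP3-/- lines and at 70.7, 127, 92.8 and 88.1 CPM in WT lines. All 4 SLMAP3-/- lines fell between the lowest and the highest WT line, and the WT lines were the more spread out, with SDs of 7.33 and 23.5 CPM. Means were 98.9 and 94.6 CPM, and the log2 fold change was 0.06 (SE 0.166, 95% interval -0.31 to 0.44, exact permutation p = 0.657, n = 4 each).

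Tead4 (chr6:128224288-128300823, minus strand) is required for the trophectoderm of the blastocyst and is active in muscle progenitors. It had the lowest CPM of the TEAD genes, at 18.5, 23.6, 13.5 and 22.9 CPM in SLMAP3-/- lines and 25.7, 23.3, 14.7 and 22.1 CPM in WT lines. Replicate 3 was the lowest line in both genotypes, and the other lines lay between 18.5 and 25.7 CPM. Means were 19.6 ± 4.64 CPM in SLMAP3-/- and 21.4 ± 4.75 CPM in WT MEFs (SD, n = 4 each), a log2 fold change of -0.13 (SE 0.225, 95% interval -0.64 to 0.38, exact permutation p = 0.571). Counts of 775 to 1591 per line put its counting error at most at 3.59%, well under the 21.7% coefficient of variation over lines. Tead4 overlaps Gm21893 on the opposite strand.

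**Figure D1:**
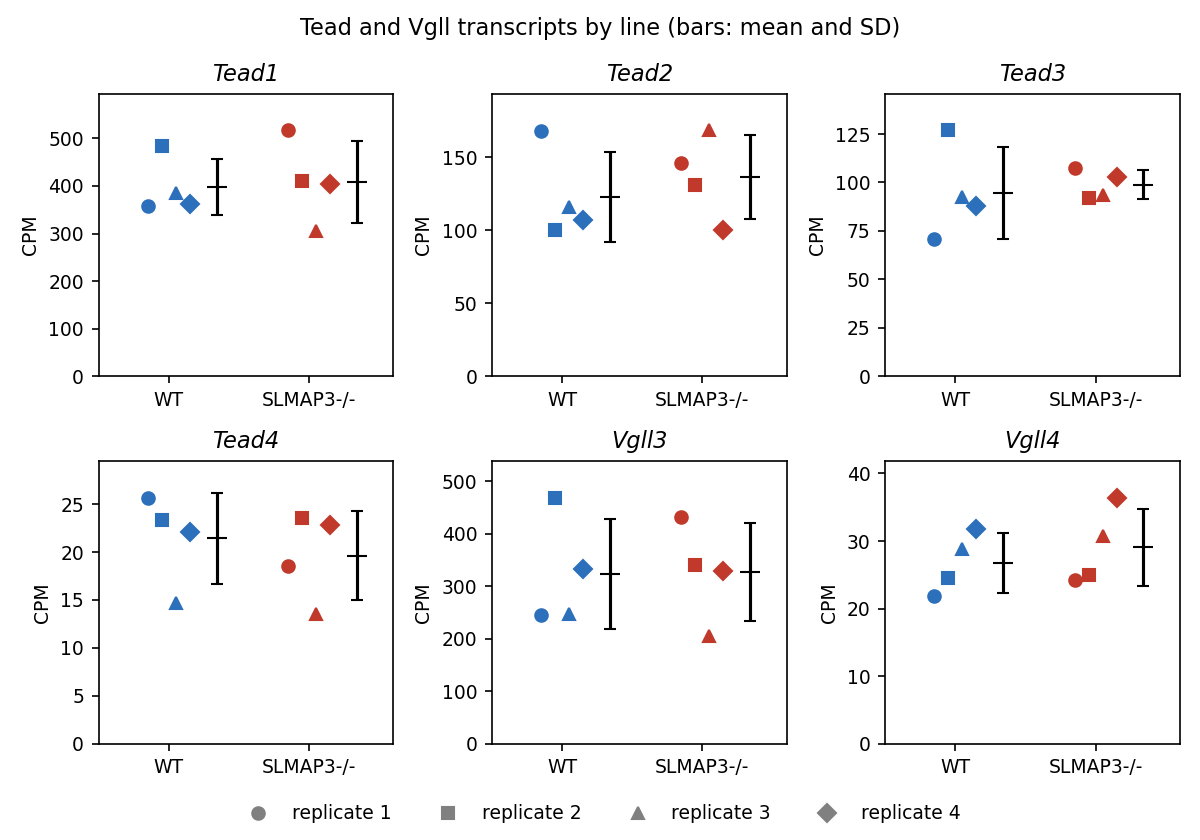
CPM (linear axes from 0) of the 4 TEAD and 2 VGLL genes in each line, WT in blue and SLMAP3-/- in red, with 1 marker shape per replicate number and bars for the mean and SD of 4 lines. The genotypes overlap in all 6 panels, and the single lines that stand highest or lowest differ from gene to gene.

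Vgll3 (chr16:65815257-65866368, plus strand) had the highest CPM of the VGLL genes, at 432, 341, 205 and 329 CPM in SLMAP3-/- lines. In WT lines it stood at 245, 469, 248 and 333 CPM. The ranges of the genotypes overlapped nearly in full, with SLMAP3-/- replicate 3 lowest and WT replicate 2 highest, 2.29-fold apart. Means were 327 ± 93.5 CPM in SLMAP3-/- and 324 ± 105 CPM in WT MEFs (SD, n = 4 each), a log2 fold change of 0.01 (SE 0.272, 95% interval -0.61 to 0.64, exact permutation p = 0.971). It was the most variable of the 6 genes between lines of a genotype, with a within-genotype SD of 0.447 on the log2 scale against a median of 0.275 over all genes tested, which placed it at percentile 68.9.

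Vgll4 (chr6:114860628-114969994, minus strand), the cofactor that competes with YAP for TEADs, was far lower. It stood at 24.2, 24.96, 30.7 and 36.4 CPM in SLMAP3-/- lines and at 21.9, 24.6, 28.9 and 31.7 CPM in WT lines. SLMAP3-/- replicate 4 was the only SLMAP3-/- line above the highest WT line, and WT replicate 1 was the lowest line. Means were 29.1 ± 5.68 CPM and 26.8 ± 4.40 CPM (SD, n = 4 each), a log2 fold change of 0.12 (SE 0.171, 95% interval -0.27 to 0.51, exact permutation p = 0.6).

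The other 2 VGLL genes were near or at the floor. Vgll1, known from placenta and other epithelia, had 0 counts in all 8 lines, and Vgll2, a cofactor of skeletal muscle, had 0, 1, 0 and 0 counts in SLMAP3-/- and 2, 0, 22 and 0 counts in WT lines. Neither passed the filter, and most Vgll2 counts came from WT replicate 3.

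YAP and TAZ, the coactivators that share the TEAD surface with VGLL proteins, varied less than the factors they bind. Yap1 stood at 210 to 265 CPM in SLMAP3-/- and 230 to 253 CPM in WT lines (log2 fold change -0.02, SE 0.0933, 95% interval -0.23 to 0.19). Wwtr1, which encodes TAZ, stood at 152 to 201 CPM in SLMAP3-/- and 164 to 202 CPM in WT lines (log2 fold change -0.03, SE 0.114, 95% interval -0.29 to 0.22). The coefficients of variation over 8 lines were 7.05% for Yap1 and 10.4% for Wwtr1, against 16.9% to 28.3% for the 6 TEAD and VGLL genes.

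**Figure D2:**
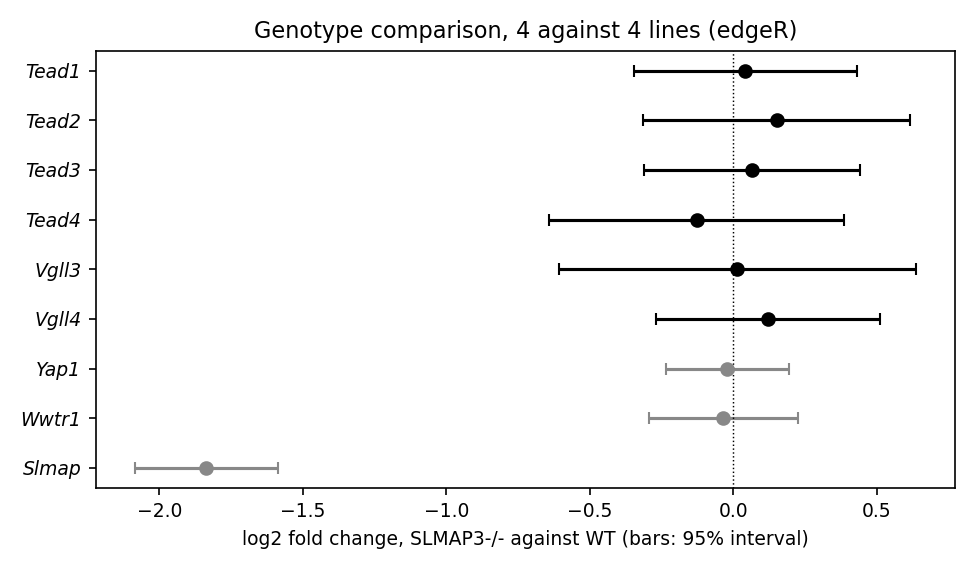
Log2 fold change of SLMAP3-/- against WT MEFs (x axis, 4 against 4 lines, edgeR) for the 6 TEAD and VGLL genes in black and Yap1, Wwtr1 and Slmap in grey, with 95% intervals as bars. The intervals of the 6 genes all include 0, from -0.64 at the lowest to 0.64 at the highest, while that of Slmap lies from -2.09 to -1.59.

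Levels of different genes were compared as CPM per kb of all annotated exons of each gene. Vgll3 had the highest level of the 6, at 45.8 ± 12.96 CPM per kb (SD, n = 8 lines). Tead1 followed at 29.7 ± 5.06, Tead2 at 27.1 ± 5.95 and Tead3 at 14.4 ± 2.43 CPM per kb. Tead4 at 5.70 ± 1.24 and Vgll4 at 5.17 ± 0.901 CPM per kb closed the order. For comparison, Yap1 stood at 25.8 and Wwtr1 at 36.5 CPM per kb on the same scale.

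Neighbours in this order, taken from these same means, were compared within lines by two-sided exact sign-flip permutation tests, adjusted by Benjamini-Hochberg over the 5 neighbour pairs. The direction of each pair was set by that order, and p reflects only the spread between lines at this length. The level of Vgll3 exceeded that of Tead1 1.5-fold, Tead2 exceeded Tead3 1.86-fold and Tead3 exceeded Tead4 2.56-fold, each in 8 of 8 lines (p = 0.00781, the smallest that 8 lines allow, adjusted p = 0.013 each, exact permutation). Tead1 and Tead2 did not differ beyond their spread (higher in 6 of 8 lines, adjusted p = 0.461, exact permutation), nor did Tead4 and Vgll4 (5 of 8 lines, adjusted p = 0.461, exact permutation).

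The order depended on the length used, since annotated exons of all transcripts need not be expressed here. With the length of the longest protein-coding transcript, Tead1 stood at 40.5, Tead2 at 38.2 and Tead3 at 34.9 CPM per kb, and Tead2 over Tead3 was no longer called (adjusted p = 0.555, exact permutation). Vgll3 at 46.4 CPM per kb was then no longer above Tead1 past the threshold (adjusted p = 0.13, exact permutation), and Vgll4 at 13.8 stood above Tead4 at 6.67 CPM per kb (adjusted p = 0.0195, exact permutation). Yap1 moved from 25.8 to 57.3 CPM per kb, above all 6 genes and Wwtr1 at 37.2, so its place beside them rested on the length used. Tead4 stayed the lowest TEAD gene in every line under both lengths.

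**Figure D3:**
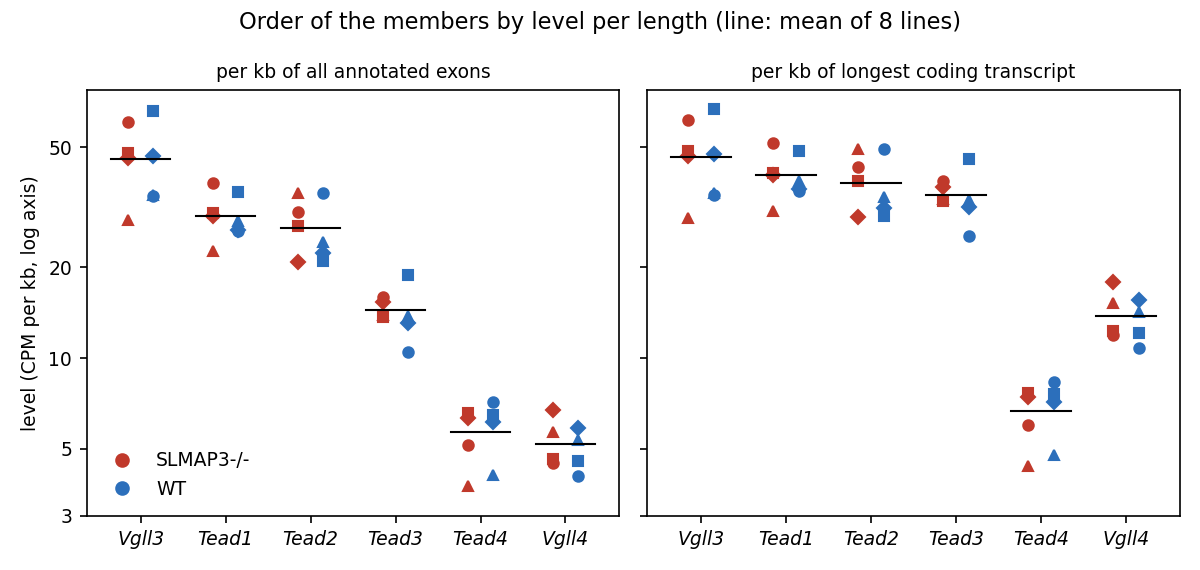
Level of each gene in each line in CPM per kb (log axis), on the left per kb of all annotated exons and on the right per kb of the longest protein-coding transcript, with SLMAP3-/- lines in red, WT lines in blue, marker shapes for the replicate number and a bar at the mean of 8 lines. Tead4 lies well below the other TEAD genes in both panels, while the gap between Tead2 and Tead3 and the order of Tead4 and Vgll4 change with the length.

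The summed TEAD transcript level was 76.9 ± 6.93 CPM per kb of all annotated exons and ranged from 68.3 to 89.8 (SD, n = 8). Per kb of the longest protein-coding transcript it was 120.2 ± 10.7 and ranged from 107 to 139.6. Tead1 made up 38.6% of the sum over all annotated exons on average, Tead2 35.2%, Tead3 18.8% and Tead4 7.44%. Tead1 led in 6 of 8 lines, and Tead2 led in SLMAP3-/- replicate 3, with 46.6% against 29.9% for Tead1, and in WT replicate 1, with 44.4% against 33.3%. No share differed between genotypes beyond the spread between lines. The share of Tead1 was 38.1 ± 5.63% in SLMAP3-/- and 39.0 ± 4.24% in WT lines, that of Tead2 36.2 ± 7.47% and 34.3 ± 7.75%. Tead3 had 18.8 ± 1.63% and 18.8 ± 4.04%, and Tead4 6.97 ± 1.90% and 7.91 ± 1.51% (SD, n = 4 each). Two-sided exact permutation tests gave p of at least 0.429 and adjusted p of at least 0.952 over the 4 genes. Per kb of the longest protein-coding transcript, the mean shares over 8 lines were 33.6% for Tead1, 31.9% for Tead2, 29.0% for Tead3 and 5.58% for Tead4, so the share of Tead3 rested on the length used.

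**Figure D4:**
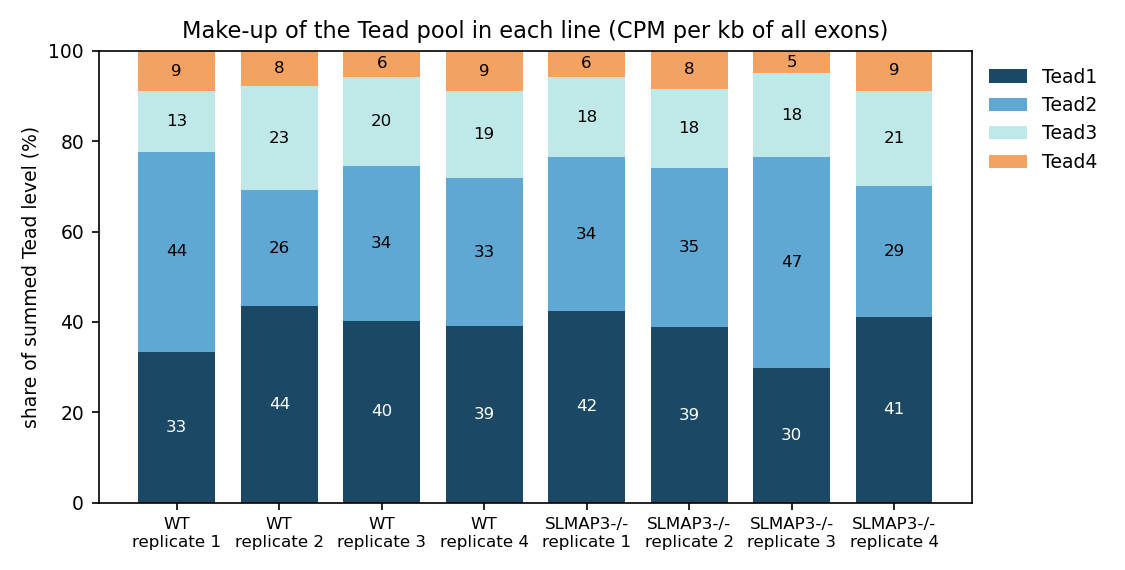
Share of each TEAD gene in the summed TEAD level (y axis, percent of CPM per kb of all annotated exons) for each of the 8 lines, 4 WT on the left and 4 SLMAP3-/- on the right, with rounded percentages inside the bars. Tead1 is the largest share in 6 lines, and Tead2 is the largest in WT replicate 1 and SLMAP3-/- replicate 3, 1 line of each genotype.

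The lines that stood highest or lowest were not the same for every gene, and among the 15 pairs of the 6 genes the clearest covariation was between Tead1 and Vgll3. Over the 8 lines their log2 CPM had a Pearson r of 0.907 (exact permutation p = 0.00213, adjusted p = 0.032 over the 15 pairs) and a Spearman rho of 0.905 (exact permutation p = 0.00456, adjusted p = 0.0685). SLMAP3-/- replicate 1 and WT replicate 2 were the 2 highest lines for both genes, and SLMAP3-/- replicate 3 was the lowest for both. Without the 2 lines farthest from the median of Tead1 (SLMAP3-/- replicates 1 and 3), r was 0.833 (exact permutation p = 0.0236, n = 6). Subtracting the mean of each genotype left r at 0.908, and with 4 lines per genotype no r was computed within a genotype. With each line left out in turn, r stayed between 0.851 and 0.954, but the adjusted p ran from 0.0149 without WT replicate 4 to 0.134 without WT replicate 1 and was above 0.05 in 7 of the 8 cases (exact permutation). Across genes, 47 of those tested (0.304%) had a higher r with Tead1 than Vgll3 had.

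The TEAD core motif GGAATG was searched for, on both strands, in the RefSeq promoter windows of GRCm38.p6. Each runs from 250 bases before to 50 bases after an annotated start, which need not be the start of the gene. Relative to the GENCODE M21 gene start, it lay 68 bases upstream for Vgll3, 39 bases downstream for Tead2 and 791 bases downstream for Vgll4. For the 3 Tead3 windows it lay 12, 217 and 471 bases downstream, and the window shown is the one at 217. Windows were found for Tead2, Tead3, Vgll3 and Vgll4, and not for Tead1 and Tead4. The windows of Vgll3, the gene that varied with Tead1, and of Tead3, which held the most matches, are shown with the motif, in either direction, in capitals. The Vgll3 window lies on the plus strand at chr16:65814939-65815238, and the Tead3 window, the middle of 3 that overlap, on the minus strand at chr17:28350551-28350850:
Vgll3: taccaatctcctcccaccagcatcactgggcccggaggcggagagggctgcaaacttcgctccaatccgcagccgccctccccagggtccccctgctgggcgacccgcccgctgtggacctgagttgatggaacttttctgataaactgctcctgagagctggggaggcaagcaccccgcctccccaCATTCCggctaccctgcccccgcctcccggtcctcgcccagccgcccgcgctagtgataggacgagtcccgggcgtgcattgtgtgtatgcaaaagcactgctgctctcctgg
Tead3: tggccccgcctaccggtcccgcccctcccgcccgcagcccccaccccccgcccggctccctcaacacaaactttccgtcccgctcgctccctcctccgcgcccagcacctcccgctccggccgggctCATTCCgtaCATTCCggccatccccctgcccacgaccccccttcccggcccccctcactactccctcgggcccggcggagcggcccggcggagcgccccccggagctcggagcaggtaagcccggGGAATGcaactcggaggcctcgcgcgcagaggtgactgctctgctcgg
The Vgll3 window held 1 match and the Tead3 window 3. The Vgll4 window held 1 match, the other Tead3 windows 1 and 0, and the Tead2 window 0. The motif was present in 14.7% of 32817 windows of the same length, and a match describes the letters only. The AP-1 motif TGAGTCA, also searched on both strands and bound by partners of TEADs, was in none of the windows of these genes and in 5.2% of all windows. All windows of these genes were rich in G and C, at 61.3% to 75.3% against a median of 52.7% over all windows.

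**Figure D5:**
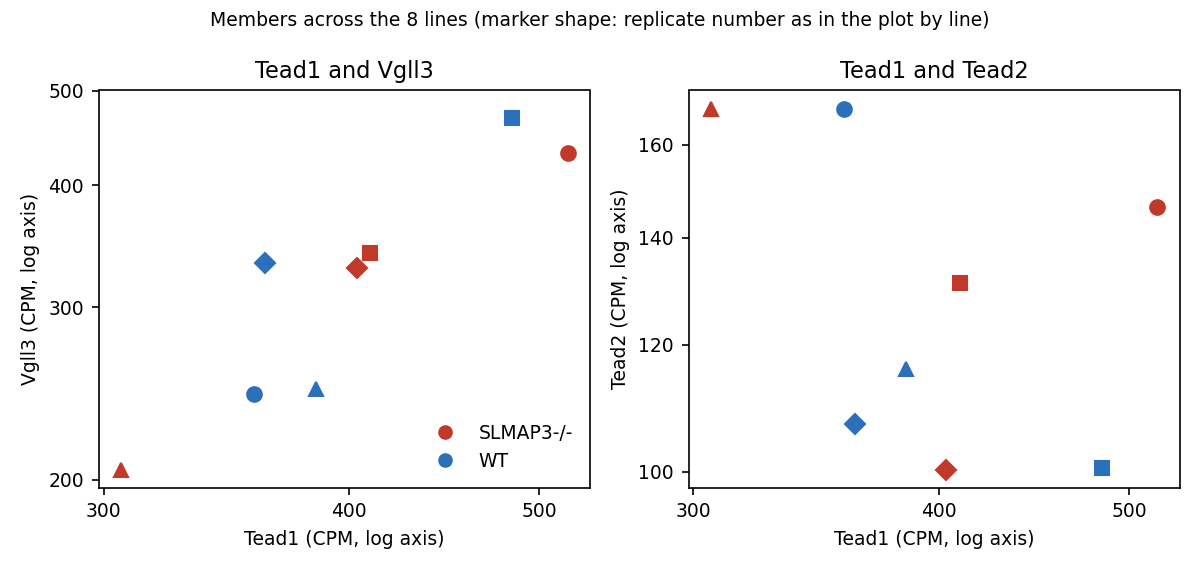
CPM of Tead1 (x axis) against Vgll3 (left) and Tead2 (right) in the 8 lines, all axes on a log scale, with SLMAP3-/- lines in red, WT lines in blue and marker shapes for the replicate number. Tead1 and Vgll3 rise together (r = 0.907). For Tead1 and Tead2 r was -0.379, not past the adjusted threshold, and ran from -0.721 to -0.071 with 1 line left out.

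The other 14 pairs did not pass the adjusted threshold. Tead3 and Vgll3 had r = 0.701 (rho 0.524, exact permutation p = 0.0489, adjusted p = 0.342), which was 0.501 without the 2 lines farthest from the median of Tead3. Tead1 and Tead3 had r = 0.667 (rho 0.643, exact permutation p = 0.0683, adjusted p = 0.342), and 0.911 without the 2 lines farthest on Tead1. Tead2 had a negative r with each of the other 5 genes, from -0.559 with Tead3 to -0.284 with Tead4, none past the threshold. Without the 2 lines farthest on Tead2 (SLMAP3-/- replicate 3 and WT replicate 1), r was -0.209 with Tead3 and 0.095 with Vgll3. It was then -0.324 with Tead4 and -0.611 with Vgll4. For Tead1 and Tead2, r was -0.534 without the 2 lines farthest on Tead1. Of the 15 pairs, 6 had a positive and 9 a negative r.

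For each of the 6 genes, the 2 tested genes with the highest Pearson r of log2 CPM over the 8 lines were noted as a description. Picked from 15461 tested genes over 8 lines, such r can be high by selection alone. The genes named ran in mean CPM from 1.27 for Rxfp3 to 233 for Bcl9l. Tead1 was most like 2810430I11Rik (0.976) and Ammecr1 (0.974), and Tead2 was most like Sap130 (0.981) and Ogfod3 (0.959). Tead3 was most like Rexo5 (0.97) and Rxfp3 (0.948), and Tead4 most like Gatad1 (0.962) and Rap1gds1 (0.958). Vgll3 was most like Tiparp (0.982), which encodes an ADP-ribosyltransferase, and Kctd9 (0.98), and Vgll4 most like Mfsd12 (0.989) and Bcl9l (0.981), a Wnt coactivator.

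No gene of the pathway around the TEADs passed the test between genotypes, which carries little information where edgeR called 0.00647% of all genes tested and DESeq2 11 of 33816. edgeR, DESeq2 and limma-voom each called 0 genes of the lists that follow, and in edgeR none of their genes had an unadjusted p under 0.05. Of 13 upstream Hippo kinases and adaptors, all tested, 4 had a higher and 9 a lower mean in SLMAP3-/- lines, with a median log2 fold change of -0.019. The adaptor Wwc1 had the smallest p in that list (log2 fold change 0.41, SE 0.254, unadjusted p = 0.147 in edgeR), followed by Nf2, the gene of the tumour suppressor Merlin (log2 fold change -0.09, SE 0.0844, unadjusted p = 0.321 in edgeR).

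Of 21 TEAD partners and modifiers, 19 were tested, 8 with a higher and 11 with a lower mean and a median log2 fold change of -0.008. Smad3, the TGF-beta effector that binds chromatin with YAP and TEAD, stood at 113, 91.3, 79.7 and 103 CPM in SLMAP3-/- and 88.3, 88.2, 73.9 and 66.2 CPM in WT lines (log2 fold change 0.29, SE 0.138, unadjusted p = 0.0671, adjusted p = 1.0 in edgeR). Its lines overlapped. Irf2bp2, a VGLL4 and TEAD4 partner, had a log2 fold change of 0.13 (SE 0.117).

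All 22 YAP and TEAD target genes were tested, 9 with a higher and 13 with a lower mean and a median log2 fold change of -0.015. The 2 with the smallest p were spread widely over lines. Ankrd1, a classical YAP target, ran from 0.482 to 11.2 CPM in SLMAP3-/- and from 3.73 to 31.6 CPM in WT lines (log2 fold change -1.08, SE 0.953). Amotl2, which encodes an inhibitor that binds YAP, ran from 151 to 544 CPM and from 185 to 310 CPM (log2 fold change 0.40, SE 0.354). Of 8 muscle genes with M-CAT elements, promoter sites that TEADs bind, 4 were tested, 3 with a higher and 1 with a lower mean and a median log2 fold change of 0.163. Acta1, the skeletal actin gene, had a log2 fold change of 0.64 (SE 0.476) and Myocd, a smooth muscle coactivator, -0.43 (SE 0.458).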

How the data were processed

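RNA of 4 SLMAP3-/- and 4 WT immortalized MEF lines was sequenced from stranded mRNA libraries. The authors ran Salmon against GENCODE M25 transcripts (GRCm38) and deposited an estimated count per gene, adjusted for length but without normalization across libraries. Versions are not given in the sources used here. The deposited DESeq2 comparison (log2 fold changes and p-values) was not used.

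Genotypes came from the labels. Counts were rounded and tested with edgeR 4.0.16 in R 4.3.3 (filterByExpr with a minimum count of 10, TMM, quasi-likelihood test, Benjamini-Hochberg over all tested genes, adjusted p under 0.05). A prior count of 2 was added for log2 CPM. Permutation tests and correlations used scipy 1.17.1 in Python 3.11.15. Exon lengths came from GENCODE M21 on the same build, which need not equal the lengths used in scaling.

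Alternatives were DESeq2 1.42.0, limma-voom (limma 3.58.1), DESeq2 size factors and other filters. The summed level of Y-linked genes (high in 1 line of each genotype), which need not give embryo sex, was used as a covariate. Further alternatives were the replicate number as a block, another gene length, another prior count, subtracted genotype means, and leaving out each line. The fits and exact tests were first tested on simulated data. Libraries of a genotype differed far beyond counting noise (chi-square per degree of freedom at least 61.7), so none was deposited in duplicate. Counting error is small beside the spread between lines, which limits precision.

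Named were the 6 genes, Slmap, Vgll1, Vgll2, Yap1 and Wwtr1, up to 2 genes per pathway list with the smallest p, and 2 most similar genes per member. The genes and lists were chosen with earlier results of these data known.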

Additional observations from a re-analysis of the deposited data

How the results depend on the processing

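None of the 6 TEAD and VGLL genes was called under any of 15 alternatives, which carries little information where so few genes were called at all. The count of genes called over the whole table was 1 in edgeR and 11 with DESeq2 (6 higher and 5 lower of 33816 genes). It was 0 with the replicate block, which did not call even Slmap and left 294 genes with an unadjusted p under 0.05. Lines sharing a replicate number came from different embryos, and their deviations correlated at -0.157 to 0.187, with 1 of 4 SLMAP3-/- lines correlating best with its own number, so the numbers were not treated as pairs. The line number common to SLMAP3-/- replicate 3 and WT replicate 4 gives a single pair, too few for a block, and its part in the results was not tested. Only Tead2 kept its direction with each line left out, and the direction of the other small changes was not stable. Leaving out 1 line in turn gave log2 fold changes from -0.09 to 0.16 for Tead1, from 0.03 to 0.34 for Tead2, from -0.048 to 0.24 for Tead3, from -0.27 to 0.015 for Tead4, from -0.15 to 0.25 for Vgll3 and from -0.007 to 0.21 for Vgll4. The difference in share between genotypes ran from -2.87 to 1.75 points for Tead1, from -1.55 to 5.3 for Tead2 and from -1.85 to 1.39 for Tead3, and with the longest protein-coding transcript it was 0.0101 points for Tead3 instead of -0.024. With that length the log2 difference of Tead4 over Vgll4 turned from 0.13 to -1.06. The number of correlated pairs ranged from 0 to 1 with 1 line left out, and r ran from -0.149 to 0.547 for Tead1 and Tead4, from -0.652 to 0.11 for Tead2 and Tead4, from -0.38 to 0.33 for Tead3 and Tead4 and from -0.419 to 0.476 for Tead3 and Vgll4. The cause of these moves was not tested beyond the smaller number of lines. Counts are gene totals, so differences between isoforms were not tested.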

Other observations

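The mean log2 CPM of the 22 YAP and TEAD target genes was set against each of the 6 genes over the 8 lines, a comparison chosen after the values of the 6 genes had been seen. By line it was 6.49, 6.64, 6.13 and 6.61 in SLMAP3-/- replicates 1, 2, 3 and 4 and 6.53, 6.80, 6.01 and 6.41 in WT replicates 1, 2, 3 and 4. The lines with the lowest target level, WT replicate 3 and SLMAP3-/- replicate 3, were also the 2 lowest for Tead4. Pearson r with Tead4 was 0.867 (exact permutation p = 0.0113, adjusted p = 0.0677 over the 6 genes). Spearman rho was 0.786 (exact permutation p = 0.0279, adjusted p = 0.168). Without the 2 lines farthest from the median of Tead4, SLMAP3-/- replicate 3 and WT replicate 3, r was 0.34 (n = 6). Leaving them out also narrows the range of Tead4, so this r cannot show whether the relation rests on them. For Vgll3 r was 0.749 (exact permutation p = 0.0328, adjusted p = 0.0983), rho was 0.619, and r without 2 lines was 0.478. Tead1 had r = 0.586 (0.579 without the 2 lines farthest from its median), Tead3 0.349 (0.352), Tead2 -0.332 (-0.186) and Vgll4 -0.308 (-0.697, exact permutation p = 0.16, n = 6). None passed an adjusted p under 0.05.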
